A study of Mus musculus with 2 samples.

Results

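Chromosome 8 was the mouse autosome on which hypothalamic DNA was most often called higher in methylation-dependent signal at weaning age than at birth. The chromosome was selected on the share of these calls, made in limma at an adjusted p under 0.05. The shares and counts that follow therefore describe the values that chose it and are not tested against other chromosomes. The unit described is the run, a group of neighbouring array probes on chromosome 8 of the mm8 mouse build with gaps of at most 500 bp between probes, of which at least 2 were kept. Chromosome 8 held 1101 such runs of 18761 on the whole array, with 5209 probes in them. A further 143 places on the chromosome held a lone probe and were not tested. The first run began at 3493424 and the last ended at 131572394. The probes were 45 to 60 bases long, with a median of 50.

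The study compared hypothalamic DNA of newborn mice (P0) with that of mice aged 21 days (P21), the interval over which pups are suckled. All DNA came from female, non-agouti mice of a mixed C57BL/6J and C3H/HeJ background, so the ages shared sex, strain mixture and the non-agouti genotype. The methylation-specific amplification microarray started from 500 ng of genomic DNA per sample, and P21 and P0 products were hybridised together on 2 arrays, described by the submitters as biological replicates. On array A the P0 DNA carried Cy5 and the P21 DNA Cy3, and on array B the dyes were exchanged. The number of animals behind each array, and whether hypothalami were pooled, is not given in the sources used here. The p-values therefore rest on the spread between these 2 arrays and not on a known number of animals. With exchanged dyes that spread also holds any dye effect. The hypothalamus holds neurons, glia and vessels whose proportions change after birth, and a change in cell proportions and a change of methylation within cells cannot be told apart in these samples. The arrays carry DNA, so no expression marker could be read to check the dissection.

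DNA methylation in mammals sits mainly on cytosines followed by guanine, is copied at cell division by a maintenance enzyme and is set anew by de novo methyltransferases. In the brain it continues to change after birth as neurons mature and glia multiply. The assay reads it through a pair of enzymes that recognise the same site, CCCGGG: SmaI cuts only the unmethylated site and leaves blunt ends, and XmaI then cuts the methylated sites that remain and leaves overhangs. Adaptors join the overhangs, so a fragment is amplified when both its ends were methylated. A higher signal therefore stands for more copies of that fragment with methylated ends, and it is a relative measure, not a percentage of methylation.

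Each array held 90535 non-control spots, of which 800 were marked as outliers on either array (30 on A and 775 on B) and left out. No spot was saturated. Probe values were log2 ratios of P21 over P0, so that 1 is a doubling, and each run had the mean of its probes on each array. A run was called when its mean over the arrays differed from 0 in limma with a Benjamini-Hochberg adjusted p under 0.05 over all 18761 runs. In limma the spread of each run is drawn towards a spread pooled over all runs, which enters with 5.58 prior degrees of freedom. Beside this call stands a rule of size with no test, met by a run that changed at least 2-fold on average and at least 1.5-fold on each array in that direction. Applied to ratios that were not turned to P21 over P0, the rule of size found 0 higher and 0 lower runs on chromosome 8 and 0 and 8 on the whole array.

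More runs of chromosome 8 gained signal from P0 to P21 than lost it. Signal was higher at P21 in 111 of the 1101 runs (10.1%), and over the whole array 7.65% of tested runs were called in that direction. It was lower in 46 runs (4.18%), against 3.99% of all runs tested. The rule of size was met upwards by 52 runs (4.72%), against 3.71% of all runs, and downwards by 3 runs (0.272%), against 0.501%. Nothing is read from the distance between these shares, because the rule used that contrast. With normexp background correction and loess the split was 91 higher and 21 lower runs (8.27% and 1.91%, against 5.69% and 1.75% on the other autosomes). With normexp alone it was 23 and 1 (2.09% and 0.091%, against 1.48% and 0.0058%). Normexp alone has no dye normalization beyond centring each array on its median. With the ratios as deposited, 7.63% of the 17266 runs of the other 18 autosomes were called higher and 4.01% lower. Chromosome 2 came next with 144 of 1460 runs called higher (9.86%), then chromosome 4 with 139 of 1513 (9.19%), and chromosome 18 came last with 5.19%. In lower calls chromosome 8 ranked 11th of the 19 autosomes. By the rule of size it ranked 3rd for gains, after chromosome 19 with 5.22% and chromosome 2 with 4.73%.

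**Figure D1:**
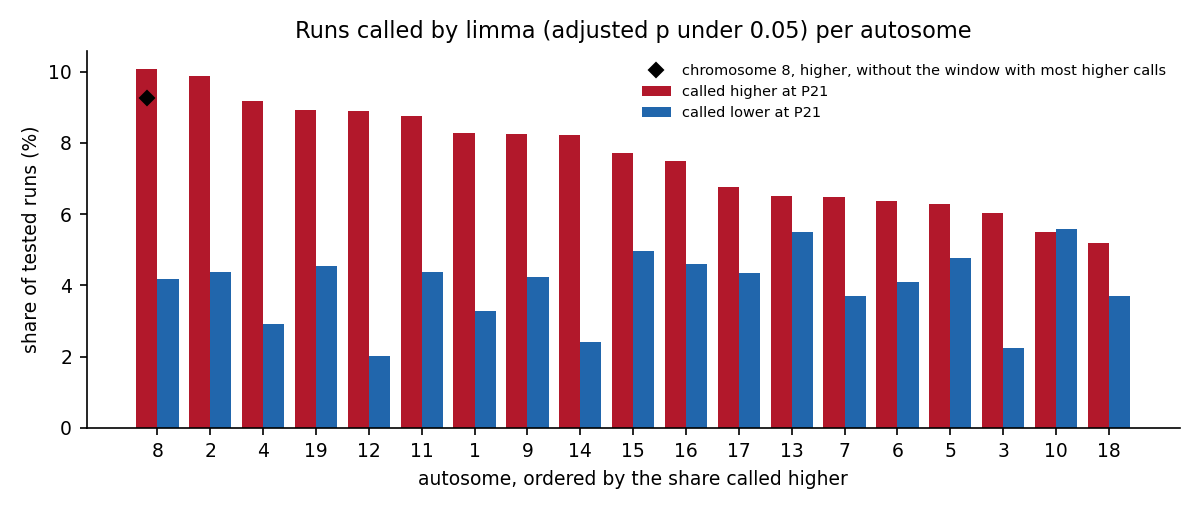
Share of tested runs (%) called higher (one bar) and lower (the other bar) at P21 by limma at an adjusted p under 0.05, for each autosome in order of the higher share; the diamond is chromosome 8 without its window from 123 to 124 Mb. Chromosome 8 stands first with 10.1%, chromosome 2 follows with 9.86%, and without that window chromosome 8 has 9.27%.

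Each array was centred on its median, but without this step the calls were again 111 and 46. Medians near 0 were thus already present in the deposited, normalized ratios. Centring on the mode moved the median of chromosome 8 to 0.030. The median run of chromosome 8 had a log2 ratio of -0.023 on array A and -0.010 on array B, beside -0.015 and -0.032 for the runs of the other autosomes. The mean was 0.058 (A) and 0.039 (B), or 0.048 ± 0.013 (SD, n = 2 arrays), against 0.023 ± 0.024 elsewhere. The mean ranked 7th of 19 autosomes on array A, 2nd on array B and 3rd over both. The 90th percentile of the run values was 0.58 on chromosome 8 and 0.43 on the other autosomes, while the 10th percentiles were -0.38 and -0.39.

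The median size of the called gains was like that elsewhere, while a smaller share of them reached 4-fold. The 111 higher runs had a median log2 ratio of 0.98, from 0.52 to 2.79, and the median over the higher runs of the other autosomes was 0.99. At least 2-fold was reached by 52 of them (46.8%, against 48.8% elsewhere) and at least 4-fold by 5 (4.50%, against 8.35%). In 45 of the 111 runs the 2-fold mark was passed on each array, against 531 of 1318 elsewhere. Every probe was up on both arrays in 86 of the 111, against 1097 of 1318 elsewhere. The 46 lower runs had a median log2 ratio of -0.66, from -1.61 to -0.52. Of these, 3 reached 2-fold (6.52%, against 13.6% elsewhere) and 0 reached 4-fold. Every probe was down on both arrays in 37 of the 46, against 583 of 693 elsewhere. By the rule of size, those 3 losses became 15 without array A and 5 without array B.

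At the threshold the called and uncalled runs had like values. The last higher runs inside it were 12127534 to 12128126, at 1.105 (A) and 0.42 (B) (adjusted p in limma 0.045), and 115455464 to 115456300, at 0.53 and 0.52 (adjusted p in limma 0.048). Just outside lay 94515432 to 94516270, at 0.88 and 0.39 (0.051), and 83582268 to 83582917, at 0.54 and 0.47 (0.053). On the lower side, 39895288 to 39895647 was inside at -0.45 and -0.61, and the first run of the chromosome, 3493424 to 3493920, was outside at -0.48 and -0.55, both with an adjusted p of 0.050 in limma.

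The 12 highest runs were spread over the chromosome, and every probe in each of them was up on both arrays. The highest lay at 108235886 to 108236268, a 4-probe run of 383 bp, with a log2 ratio of 2.77 on array A and 2.80 on array B. Its mean was 2.79 ± 0.020 (SD, n = 2 arrays), or 6.90-fold, and its neighbours 48359 bp before and 29547 bp after lay well apart from it. The run from 87596928 to 87598914 reached 2.50 and 2.42, or 5.51-fold, over 8 probes. In the run from 38016449 to 38016865 the values were 2.41 and 2.26, or 5.05-fold. The log2 signal in these 3 runs was 11.7 to 12.5 at P21 and 9.35 to 9.80 at P0. Both ages stood well above background at every one of their probes.

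A further 2 runs passed 4-fold. The run from 123390622 to 123392089 had 2.21 on array A and 2.10 on array B, or 4.45-fold. The run from 107102343 to 107102912 had 2.08 and 2.14, or 4.31-fold, with log2 signals at P0 of 12.6 and 12.2 on arrays A and B. In both runs the arrays differed by far less than the ratio itself.

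The next 7 runs lay between 3.56-fold and 3.98-fold. The run from 123012943 to 123013554 had 1.87 (A) and 2.11 (B), with log2 signals of 15.5 and 15.2 at P21. The run from 36920520 to 36921216 had 1.82 and 2.07. The 2-probe run from 123569486 to 123569669 had 2.14 and 1.74, the widest spread of the 12 (SD 0.29). The run from 123301523 to 123303392 had 1.94 and 1.84, and 87634018 to 87636035 had 1.90 and 1.85 over 10 probes. The last of them, 94886076 to 94886358 and 13623500 to 13624016, had means of 1.84 ± 0.032 and 1.83 ± 0.19 (SD, n = 2 arrays). With normexp and loess all 12 were still called, and 3 moved by over 1.5-fold, with folds of 4.50 at 108235886, 2.76 at 123390622 and 2.21 at 87634018. With normexp alone 11 were still called, and 87634018, at 2.13-fold, was not (adjusted p in limma 0.295). Of the 12, 4 lay in the single window from 123 to 124 Mb and 2 lay within 39108 bp of each other.

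The call favours runs whose arrays are alike, so the likeness of the called gains on both arrays follows in part from it. Over all 1101 runs the values of the arrays correlated with r = 0.741 (rho 0.532), beside 0.728 (0.502) on the other autosomes, as a description over runs that share arrays and DNA. The median difference in size between the arrays was 0.20 log2 units per run in both sets. With the dyes exchanged, a gain seen on both arrays had the P21 DNA in Cy3 on array A and in Cy5 on array B.

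**Figure D2:**
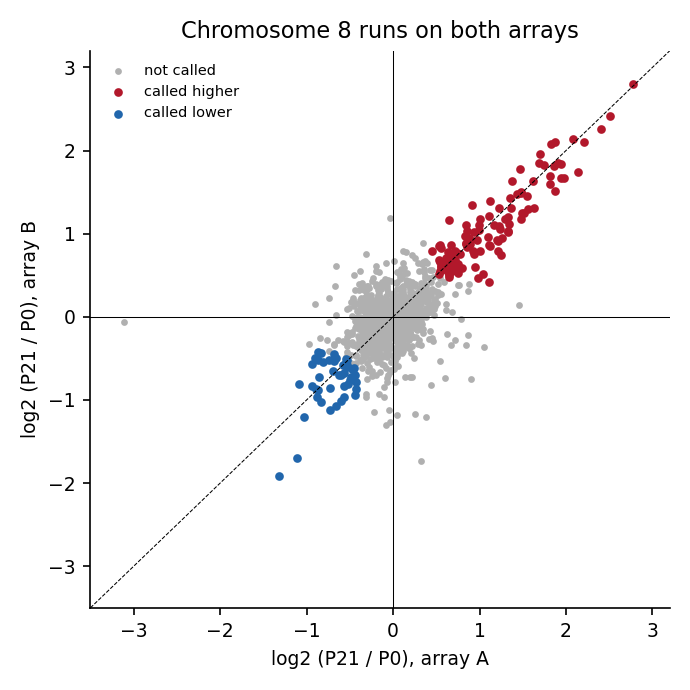
Each point is a tested run of chromosome 8, with its log2 ratio of P21 over P0 on array A (x axis) and on array B (y axis), coloured by its call in limma. The called gains lie along the diagonal, which the call favours, up to 2.77 and 2.80. The called losses reach -1.32 and -1.91, and 1 uncalled run lies far to the left at -3.11 on array A and -0.063 on array B.

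A few runs differed widely between the arrays and were not called. The run from 13287499 to 13288451 had the largest such difference among runs with a mean log2 signal above 8. It holds 8 probes and read -3.11 on array A and -0.063 on array B (adjusted p in limma 0.168). Its P21 signal was alike on the arrays, at 9.92 and 10.2, while its P0 signal was 13.03 on the first and 10.3 on the second, so the difference lay in the P0 channel of array A. The run from 87440436 to 87440668 read 0.33 and -1.73, and 63524953 to 63525451 read 1.06 and -0.36. The cause of these differences was not tested.

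The called losses had a median log2 ratio of -0.66 beside 0.98 for the gains, and on the other autosomes the medians were -0.71 and 0.99. The lower runs of chromosome 8 had a median log2 signal over ages and arrays of 7.62 and the higher runs 10.6, and on the other autosomes these were 7.77 and 10.48. The median signal of the higher runs went from 9.92 at P0 to 11.3 at P21, and that of the lower runs from 8.15 to 7.24. Probes differ in how well they bind, so these levels describe the probes called and not the DNA alone. The lowest run, 73114781 to 73115099, read -1.32 on array A and -1.91 on array B, a mean of -1.61 ± 0.42 (SD, n = 2 arrays) or 3.06-fold lower. It has 2 probes, and on array B only 1 of them was well above background at P21. The run from 98741410 to 98742276 read -1.12 and -1.70, or 2.65-fold lower, with both ages above background at all 4 probes.

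The last loss past 2-fold was 92067221 to 92067447, at -1.04 and -1.20. Next in size were a pair of neighbours 518 bp apart, 126835889 to 126836052 at -1.09 and -0.81 and 126836570 to 126836796 at -0.84 and -1.02. The run from 73436705 to 73437353 read -0.73 and -1.12. The run from 89467855 to 89468360 read -0.88 and -0.96 (mean -0.92 ± 0.055, SD, n = 2 arrays), with log2 signals at P0 of 13.01 and 12.9. All 4 of its probes fell on both arrays.

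The remaining 5 of the 12 lowest runs lay between -0.88 and -0.80. The run from 86893967 to 86894381 averaged -0.88, 113679392 to 113679767 averaged -0.87, 37194371 to 37194987 also averaged -0.87, and 125567759 to 125568403 averaged -0.80. In the run from 4257276 to 4258059 the mean was -0.88 at a log2 signal of 4.08, and P21 passed the background mark at 1 of 3 probes on the first array and 0 on the second. With normexp background correction and loess, 2 of the 12 lowest runs were still called (89467855 and 126836570) and 8 moved by over 1.5-fold. With normexp and no loess 0 were still called, while all 12 kept their direction and 1 moved by over 1.5-fold. The run at 92067221, for example, averaged -1.12 as reported, -0.98 with normexp alone and -0.47 with loess added, and the cause was not tested.

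Where 1 age was not well above background at any probe on either array, its ratio is only a bound. This held for 3 called runs of chromosome 8. In the run from 60297318 to 60297720 the P0 signal was below that mark, and P21 was at least 1.46-fold higher. The higher run 8073437 to 8074119 was likewise dim at P0, and the lower run 46898960 to 46899777 was dim at P21. In these the bound fell under 1, so no fold is given.

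Along the chromosome the gains were scattered, with a few denser places. Of 109 windows of 1 Mb with a tested run, 54 held a higher call, 30 a lower call, 25 both and 50 neither. Among the 66 windows with at least 5 tested runs, 16 had no higher call (24.2%), against 45.7% of the 1139 such windows on the other autosomes. The median share called higher was 9.76% in those windows of chromosome 8 and 4.88% in the others. The windows of chromosome 8 held somewhat more runs, a median of 12.5 against 10, and the part of this in the counts was not tested. Lower calls outnumbered higher ones in 10 of the 66. The 3 windows with most gains held 23 of the 111.

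**Figure D3:**
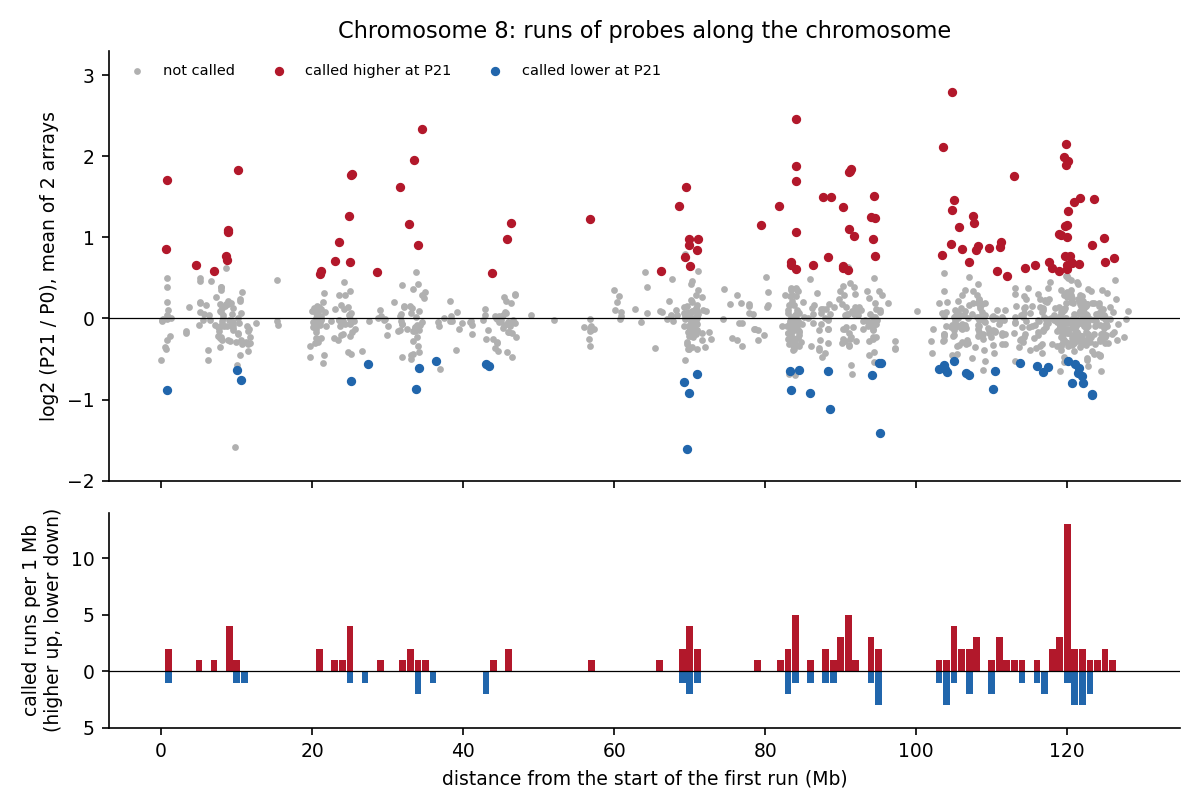
Top, mean log2 ratio of P21 over P0 for each tested run of chromosome 8 against its distance from the first run (Mb), coloured by call; bottom, number of called runs per 1 Mb window, gains upward and losses downward. Gains lie along nearly the whole length, the tallest bar holds 13 runs, and no window has more than 3 losses.

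In blocks of 10 Mb, the share called higher was largest from 90 to 100 Mb, with 17 of 114 runs (14.9%; 6 lower). It was 12.1% from 100 to 110 Mb and 11.3% from 20 to 30 Mb. The block from 120 to 130 Mb held the most runs, 265, and had 27 gains (10.2%) and 11 losses. The part from 40 to 50 Mb had 3 gains in 56 runs, and the blocks from 50 to 60 Mb and from 130 to 140 Mb had 0 gains and 0 losses among 8 and 5 runs, too few to show a share.

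Among windows with at least 5 tested runs, the highest shares after the window at 123 Mb were in windows of 11 to 17 runs. From 93000001 to 94000000, 3 of 11 runs were higher, among them the 8-probe run from 93759320 to 93760779 at 1.49 on array A and 1.25 on array B. From 114000001 to 115000000, 3 of 11 runs were higher, with means of 0.59, 0.88 and 0.95. From 12000001 to 13000000, 4 of 17 runs were higher and 0 lower. From 28000001 to 29000000, 4 of 17 runs were higher and 1 lower, the run from 28717876 to 28718659 reaching 1.74 and 1.83. In that window the higher run from 28587257 to 28587637 (mean 1.77) and the lower run from 28601999 to 28602705 (mean -0.77) lay less than 15 kb apart.

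From 94000001 to 95000000, 5 of 22 runs were higher, and 3 of them passed 3-fold: 94538099 to 94539080 at 1.95 and 1.67, 94694610 to 94695447 at 1.97 and 1.67, and 94886076 to 94886358 at 1.87 and 1.82. Losses were most numerous, with 3 each, in the windows that start at 98, 107, 124 and 125 Mb, of 15, 15, 35 and 38 tested runs. Among windows with at least 5 tested runs, the share lower was largest from 46000001 to 47000000, with 2 of 7 runs (28.6%). Both of these runs were dim, with mean log2 signals of 3.89 at 46898960 and 3.79 at 46527318. At P21 the first passed the background mark at 0 probes, and the second at a share of 0.25 of its probes on each array. Over the whole array 3.99% of runs were called lower. The window at 107 Mb held both the 4.31-fold gain at 107102343 and losses of -0.57, -0.62 and -0.66.

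The window from 123000001 to 124000000 held more higher calls than any other autosomal window of 1 Mb. Of its 44 tested runs, 13 were higher (29.5%) and 1 was lower. The next windows by number were on chromosomes 5 and 2 with 10 each, of 24 and 39 runs. By share it ranked 36th among the 1205 autosomal windows with at least 5 runs, and first among the 88 with at least 30 runs. The window is named in the rule, so these ranks are descriptive. Its runs averaged 0.44 on array A and 0.33 on array B, or 0.38 ± 0.078 (SD, n = 2 arrays) and their median was 0.29.

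**Figure D4:**
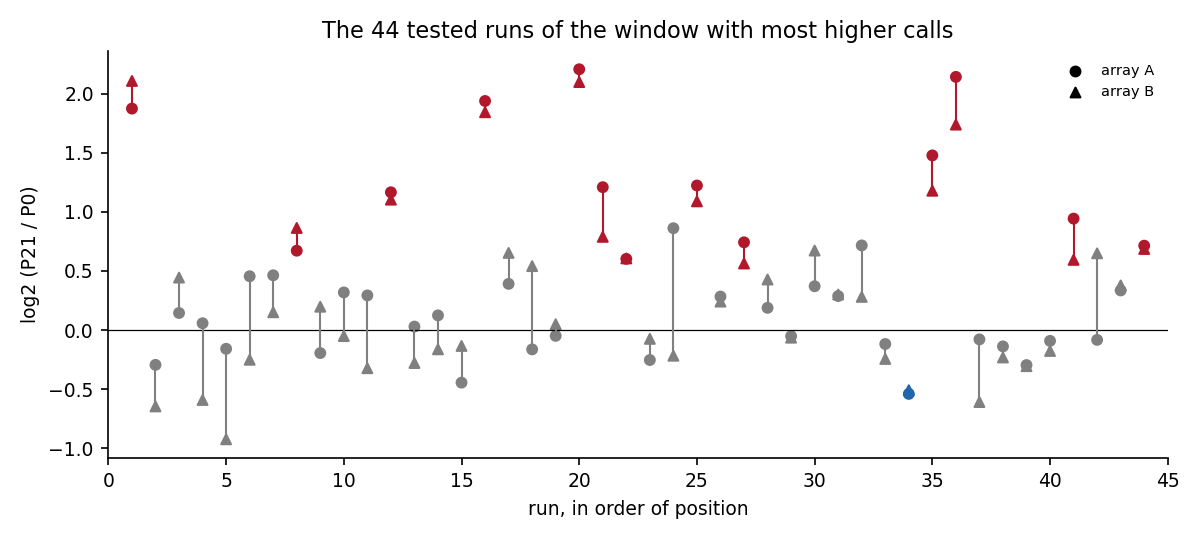
Log2 ratio of P21 over P0 for the 44 tested runs of chromosome 8 from 123 to 124 Mb, in order of position, with array A as circles and array B as triangles, coloured by call. The 13 called gains are spread through the window between 0.60 and 2.15 in their means, and 1 run is called lower at -0.53.

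Of the 13 gains in this window, 5 lay in 2 stretches of neighbouring runs and the other 8 stood alone between uncalled runs. The first was 123012943 to 123013554 at a mean of 1.99, followed by 123161476 to 123162711 at 0.77 and 123227881 to 123228504 at 1.13. Then came 123301523 to 123303392 at 1.89. A stretch of 3 runs called in a row covered 22804 bp, with 123390622 to 123392089 at 2.15, 123396894 to 123397444 at 0.999 and 123412651 to 123413425 at 0.60.

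It was followed by 123435926 to 123437414 at 1.16 and 123439523 to 123440218 at 0.65. The loss at 123556246 to 123556761 (-0.53, adjusted p in limma 0.047) stood about 12 kb before the pair 123568754 to 123568907 and 123569486 to 123569669, at 1.33 and 1.94. The last gains were 123843694 to 123844823 at 0.77 and 123974752 to 123975668 at 0.70. With normexp and no loess, 5 of the 13 were still called. The direction was kept by 12, of which 1 moved by over 1.5-fold, and the middle run of the stretch, 123396894, turned to -0.21 (adjusted p in limma 0.952).

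The windows beside it did not carry the same density. From 122000001 to 123000000, 3 of 39 runs were higher and 0 lower, with a window mean of -0.034. From 124000001 to 125000000, 2 of 35 were higher and 3 lower, and from 125000001 to 126000000, 2 of 38 were higher and 3 lower. Without the window from 123 to 124 Mb, an alternative chosen after seeing the data, 98 of the other 1057 runs of chromosome 8 were higher (9.27%), which is second to chromosome 2.

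Gains in direct succession were found in 11 stretches of at least 2 neighbouring tested runs. Neighbours here are runs next in order at any distance, so a stretch need not be a local cluster. The widest gaps inside stretches were 984485 bp, from 115455464 to 116441478, and 144053 bp, from 114632109 to 114777891. Together the stretches held 26 of the 111 gains (23.4%), against 24.1% of the gains of the other autosomes. The longest had 4 runs over 39108 bp from 87596928 to 87636035: 2.46, then 1.69 at 87612228 to 87613221, 1.06 at 87626202 to 87628321, and 1.88. On the arrays the second of these read 1.88 (A) and 1.51 (B) and the third 1.20 and 0.92. The tested runs on both sides, 87577878 to 87578070 and 87675243 to 87676404, were not called.

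A stretch of 3 runs from 12268633 to 12392056 spanned 123424 bp, with means of 0.73, 1.06 and 1.09. Closest together were the pairs from 123568754 to 123569669, over 916 bp, and from 93787558 to 93788587, over 1030 bp, where the values were 0.64 and 0.62. Losses in direct succession were 2 pairs, or 8.70% of the 46 losses, against 15.7% of the losses elsewhere. These were the neighbours at 126835889 and the runs 98741410 to 98742276 and 98776414 to 98777111.

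Neighbouring probes were more alike the closer they lay. Pairs of adjacent probes on chromosome 8 less than 100 bp apart correlated with r = 0.912 over 1690 pairs, those 400 to 500 bp apart with 0.772 over 241, and those 1000 to 2000 bp apart, a distance that is not joined within a run, with 0.421 over 16. Adjacent runs had r = 0.310 at 500 to 2000 bp and 0.315 at 2 to 10 kb, where the other autosomes had 0.466 and 0.0893. At 10 to 100 kb the value was 0.048. These correlations describe neighbouring probes and runs, which share arrays and DNA samples. Whether they also share fragments or base composition was not tested.

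Along runs of 8 probes, the ratio changed most between the fourth and the fifth probe. In the 73 runs of chromosome 8 with 8 probes, the median step in size from the fourth to the fifth probe was 0.24, against 0.046 to 0.085 between the other neighbours, although the median distance there was 116 bp, close to the 89 to 109 bp of the others. On the other autosomes it was 0.20 at that place, over 1439 runs. The steps elsewhere in these runs of chromosome 8 had the same sign on both arrays in 21.9% to 39.7% of runs. For the step from the fourth to the fifth probe this share was 58.9%. On the other autosomes the shares were 29.3% to 32.3% and 50.6%.

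Several of the largest gains changed level at that place. In the run from 123390622 to 123392089 the first 4 probes averaged 0.88 and the last 4 averaged 3.43, on array A 0.77 and 3.65 and on array B 0.99 and 3.21. In 123301523 to 123303392 the values were 0.76 and 3.02, and in 93759320 to 93760779 they were 0.68 and 2.06. The run from 125222405 to 125223805 went from 0.87 to 2.11. In 87596928 to 87598914 the order was the other way, with 2.97 and then 1.95. These groups of probes differed by at least 1 on both arrays in 3 of 13 called 8-probe gains, and in 34 of 140 on the other autosomes.

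Shorter and longer runs showed such levels too. In the 4-probe run from 123161476 to 123162711 the first 2 probes read -0.14 and 0.16 and the last 2 read 1.54 and 1.51 as means of the arrays. The 10-probe run from 123435926 to 123437414 had 3 levels, with 4 probes from 1.64 to 2.01, the next 4 from 1.01 to 1.11, and the last 2 at -0.064 and -0.12. The means of 0.77 and 1.16 given for these runs thus average probes at different levels.

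The runs of chromosome 8 were built much like those of other autosomes. Their median span was 634 bp, against 605 bp, with a median of 4 probes in both. They were somewhat brighter, with a median log2 signal of 10.04 against 9.60, the second highest of the autosomes, and every probe passed the background mark at both ages on each array in 85.5% of runs, against 81.9%. The nearest tested run lay at a median of 14513 bp, against 15919 bp. When the runs of the other autosomes were weighted to the brightness classes of chromosome 8, their share called higher was 7.92%, and weighted by probe number and brightness together it was 7.87%, beside the unweighted 7.63%.

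Gains were most frequent in runs of 5 to 8 probes. In that class 30 of 182 runs of chromosome 8 were higher (16.5%), against 8.40% on the other autosomes, and 1.65% were lower, against 2.01%. The share higher was 5.38% for 2 probes (4.19% elsewhere), 4.97% for 3 probes (4.89%), 10.3% for 4 probes (8.65%) and 12% for more than 8 probes, 9 of 75 runs (11.4%). The share lower was 6.15% for 2 probes (8.81% elsewhere), 10.6% for 3 probes (5.69%), 3.25% for 4 probes (3.32%) and 0% for more than 8 probes (0.471%). Against the other autosomes, losses were thus less frequent at 2 probes and more frequent at 3, as described and not tested.

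**Figure D5:**
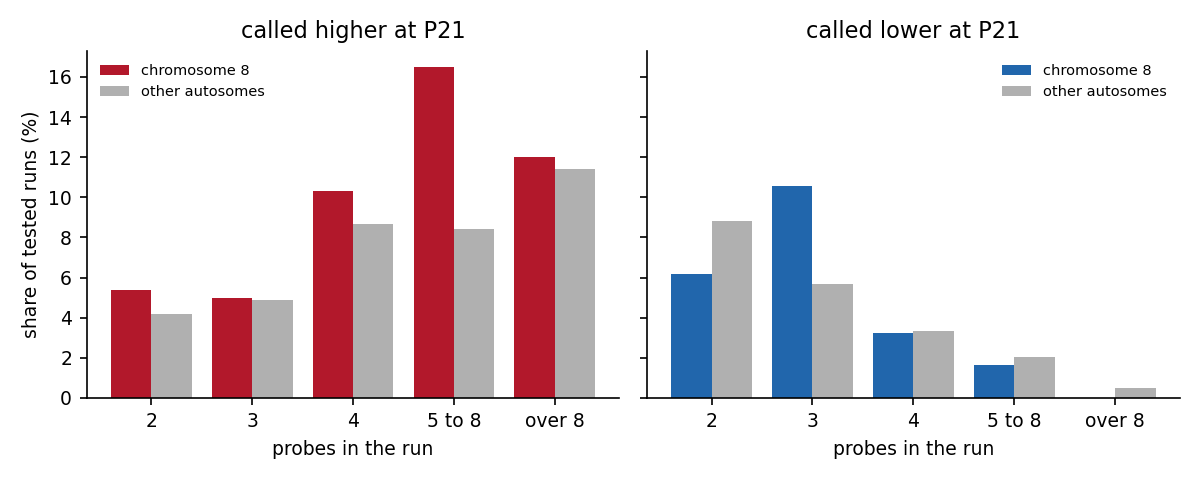
Share of tested runs (%) called higher (left) and lower (right) at P21 by number of probes in the run, for chromosome 8 and the other autosomes. The share higher on chromosome 8 is largest at 5 to 8 probes, 16.5% against 8.40%, and the share lower is largest at 3 probes, 10.6% against 5.69%.

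By brightness, the share higher on chromosome 8 was 5.84% in the dim class when the autosomal runs were cut into 3 classes of equal size, 13.1% in the middle and 10.4% in the bright one, against 4.37%, 10.1% and 8.49% on the other autosomes. Losses were 8.44%, 3.52% and 1.52% in the same order, against 6.90%, 3.72% and 1.38%. By distance to the nearest tested run, the share higher was 8.92% under 1 kb (6.55% elsewhere), 0 of 19 runs at 1 to 2 kb (4.34%), 14.04% at 2 to 10 kb (9.97%), 9.16% at 10 to 100 kb (7.91%) and 10.2% over 100 kb, 13 of 128 runs (5.02%). None of these classes entered the rule, but the calls in them are those that chose the chromosome, so they are given without a test.

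The positions are those of mm8, and no gene, exon or promoter is named for a run, because the arrays do not pair their probes with genes and the gene tables at hand use another build. Probe sequences were not used here.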

How the data were processed

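Genomic DNA of P21 and P0 hypothalamus was compared on 2 two-colour Agilent tiling arrays with exchanged dyes. The deposited scanner files hold spot intensities, flags and log10 ratios of red over green after background subtraction and dye normalization by Feature Extraction, version 10.5.1.1 per the file headers and 9.1.3.1 per the submitters' processing notes, on build mm8 per the file headers. The authors' value table repeats these log10 values in rounded form with array A's sign reversed (largest difference 0.00496).

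Here the deposited log10 ratios were converted to log2, given the direction P21 over P0 and centred on each array's median. Outlier spots were dropped after probes had been joined to runs, and repeats of a probe were averaged. Runs with at least 2 kept probes were fitted with limma 3.58.1 (R 4.3.3; lmFit and eBayes against 0, two-sided), with Benjamini-Hochberg adjusted p-values over 18761 runs. The fit was tested on simulated data. Signals are log2 of the processed intensities that the authors deposited; well above background is the scanner software's flag in the deposited files. Bounds use signals after loess and Aquantile.

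Runs were named by rule: the 12 highest and 12 lowest called runs, all called runs of the window from 123 to 124 Mb, the windows with the highest shares of gains and most losses, the longest stretches, the 3 widest differences between arrays and the runs at the threshold. Other runs, such as those showing steps and those of the window at 94 Mb, were named after their values were seen. The chromosome, lists and rules were chosen with earlier results of these data known. Counts from 2 arrays have little precision, and array signals carry no read depth. Alternatives covered background correction, loess, centring, flags, dim probes, joining, probe number, run summary and limma settings. Figures used Python 3.11.15 and matplotlib 3.10.9.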

Additional observations from a re-analysis of the deposited data

How the results depend on the processing

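The share of gains, the value that chose chromosome 8, was second to that of chromosome 10 with normexp and no loess (2.09% and 2.32%) and first of 19 in the other settings with calls; uncentred arrays and the authors' rounded values left it at 10.1%, which tests nothing. Without the window from 123 to 124 Mb, chosen after seeing the data, its rank ran from 1 to 7. Normexp and loess gave 91 higher and 21 lower runs (81.2% of calls higher), and normexp without loess 23 and 1 (95.8%). The reported split was 111 and 46 (70.7%). On the other autosomes the share called higher fell too, from 7.63% to 5.69% with normexp and loess and 1.48% without loess. Normexp alone also cut the excess over the other autosomes to 0.612 percentage points, from 2.45, the window's mean to 0.30 and its gains to 5, and turned the run at 123396894 to -0.21. The window had 8 gains with the median of probes. Lower calls were 70 with probes well above background only (6.74%, against 6.99% on the other autosomes). They were 14 with lone probes kept (1.13%, against 1.73%) and 12 with the median of probes (1.09%, against 1.44%). With trend and robust settings they were 74 (6.72%, against 7.85%). Lower runs by size were 0 with normexp, with or without loess, 6 with gaps of at most 250 bp, 1 with at least 3 probes, 5 without array B and 15 without array A. The median run of chromosome 8 was -0.0071 with normexp and loess, -0.034 without loess, 0.030 centred on the mode, -0.0014 with gaps of at most 250 bp, -0.033 with lone probes, and -0.023 to -0.010 with 1 array left out. The comparisons for the named runs include uncentred arrays and the authors' rounded values, which could hardly differ, so their count is no measure of robustness. Of 466 such comparisons that had a test, 412 kept direction and side of the threshold, 51 no longer passed, 2 newly passed and 1 turned. The causes were not tested. With 1 array left out no test can be run. No paired analysis was possible because there is 1 group and each array already holds the pair of ages.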
